A study of Mus musculus with 18 samples.

Results

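Regulatory T (Treg) cells that overexpressed the whole miR-23 cluster, called cluster Tg, were compared with wild-type (WT) Treg cells by RNA sequencing, with 3 libraries in each group. The comparison covered every gene that reached at least 1 RPKM (mapped reads scaled to transcript length and to library size) in 3 or more of the 18 libraries of the series, which left 11520 of 23953 entries of the table. All cells were sorted as CD4+CD25hi from C57BL/6 mice. The cluster Tg cells carried T cell-specific overexpression of the complete cluster, and the other overexpressing groups, miR-23 Tg, miR-24 Tg and miR-27 Tg, carried 1 member each. A further group, DKO, had both paralogous clusters (miR-23a and miR-23b) deleted in T cells and is given as values only. The labels name neither the promoter and integration site of the transgenes nor the age of the mice, and do not say whether each library of a group is its own animal. The p-values therefore measure the spread between these libraries, which may be partly technical. By sex-linked transcripts each group held libraries of both sexes, so its libraries did not all come from 1 animal. The genotype label of the control libraries reads WT Tg and does not say what, if anything, they carry in common with the transgenic groups. The name of the deposited RPKM values, which cover all 18 libraries, includes CD4cre. It does not say which groups carried it.

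Treg cells are CD4+ T cells that express the transcription factor Foxp3 and restrain immune responses. The miR-23, miR-27 and miR-24 hairpins are cut from 1 primary transcript, and a microRNA lowers the level or the translation of messenger RNAs that pair with its seed, the bases near its 5′ end. Treg cells also pass from a resting state, marked by lymph node homing receptors, to an effector state, marked by receptors for tissue signals and by suppressive molecules.

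The 3 overexpressed mature microRNAs, taken from RefSeq (GRCm38.p6), are shown because the later search for target sites uses their seeds. They lie on the plus strand of chromosome 8, and the seed, bases 2 to 8, is in capitals.
miR-23a-3p, chr8:84208563-84208583: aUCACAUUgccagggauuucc
miR-27a-3p, chr8:84208727-84208747: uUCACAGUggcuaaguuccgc
miR-24-3p, chr8:84208875-84208896: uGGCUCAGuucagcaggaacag
The miR-23 and miR-27 seeds both start with UCACA, and the miR-24 seed does not.

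The hairpin genes of the cluster were read far above WT in all cluster Tg libraries. Mir23a stood at 22900.2, 17106 and 11691 RPKM in cluster Tg libraries 1, 2 and 3, and at 61.8, 155 and 0 RPKM in the WT libraries. Mir27a stood at 24076, 18298 and 13710.0 RPKM in cluster Tg and at 347, 145 and 0 RPKM in WT. Mir24-2 stood at 7943, 6413 and 6052 RPKM in cluster Tg and at 50.3, 0 and 0.0002 RPKM in WT. The groups did not overlap at any of the 3 loci, and library 1 had the highest and library 3 the lowest cluster Tg value at each. The exact permutation test, two-sided, gave p = 0.1 for each locus, the smallest that 3 against 3 libraries allow. Each single-member line had a higher mean at its own locus, with 33619 RPKM for Mir23a in miR-23 Tg, 68704 RPKM for Mir27a in miR-27 Tg and 13497 RPKM for Mir24-2 in miR-24 Tg. The hairpins of the second cluster, Mir23b, Mir27b and Mir24-1 on chromosome 13, were at most 0.00771 RPKM in any of the 18 libraries. Hairpin genes are shorter than a usual library fragment, so these values describe reads over the loci and not the amount of mature microRNA.

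Across the 11520 genes, 1592 were called higher in cluster Tg than in WT, 13.8% of those tested, and 1214 were called lower, 10.5%. A gene was called when limma's moderated test on log2(RPKM + 0.5), fitted over all 18 libraries, gave a Benjamini-Hochberg adjusted p under 0.05. All fold changes are on that log2 scale, which understates the change of genes with low values. The change reached 2-fold for 404 of the higher and 124 of the lower genes, and the median over all genes was 0.02. In sorted bulk samples, a change in the share of a cell subset and a change in RNA per cell cannot be told apart. Of the called genes, 2701 had no overlap between the groups' libraries and 105 overlapped. A further 1959 of the 11520 genes had no overlap and were not called, so lack of overlap was common among all genes. Cluster Tg library 1 lay farthest from WT: of the 404 genes, 301 had their highest value there, and of the 124, 97 had their lowest value there. Without that library 865 genes were called higher and 602 lower, with 264 and 74 by at least 2-fold. Without WT library 1, 782 were called lower, and without cluster Tg library 3, 193 were called lower by at least 2-fold.

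**Figure D1:**
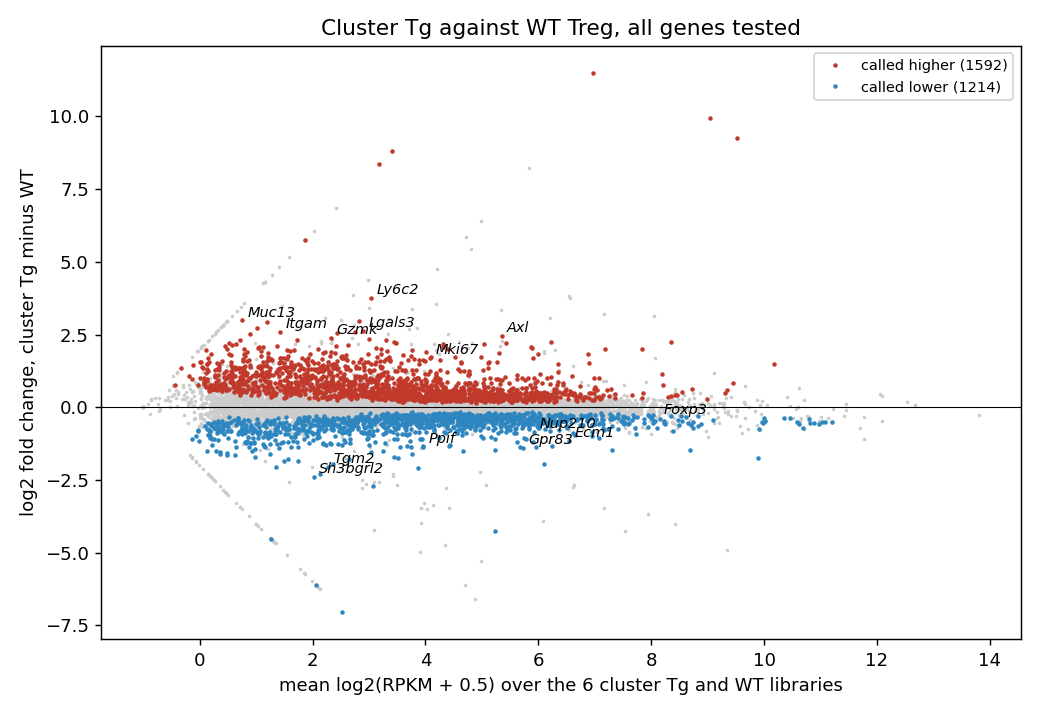
Each point is 1 of the 11520 genes, with its mean log2(RPKM + 0.5) over the 6 libraries on the x axis and its log2 fold change, cluster Tg minus WT, on the y axis. Red points are the 1592 genes called higher and blue points the 1214 called lower; the diagonal lines of points are entries listed at 0 in one of the groups.

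The estimated depth was 22.44 to 30.0 megareads in the cluster Tg libraries and 24.42 to 31.7 megareads in the WT libraries, read from the steps between low RPKM values. Within the WT group the correlation of libraries was 0.926 to 0.933, and within cluster Tg 0.912 to 0.925. Cd4 and Cd3e, defining T cell genes, were read at 288 to 445 RPKM and 249 to 340 RPKM over the 6 libraries, and Foxp3 at 207 to 336 RPKM, so the labelled cell type showed its defining markers. Each group held 1 library with Y-linked transcripts and 2 with Xist. Library 3 had the lowest summed level of immediate-early genes in both groups, 2928 RPKM in cluster Tg and 2993 RPKM in WT, against 4741 to 5617 RPKM in the other libraries.

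The core genes of Treg identity did not pass the test. Foxp3 stood at 257, 283 and 207 RPKM in cluster Tg and at 334, 287 and 336 RPKM in WT. The groups did not overlap, with a log2 fold change of -0.37 ± 0.16 (SE), but limma's adjusted p was 0.12. With a covariate for immediate-early genes, added after seeing the data, the value was -0.41 and the adjusted p 0.04. Il2ra, the high-affinity chain of the IL-2 receptor and the CD25 of the sort gate, was at 208, 200 and 248 RPKM against 208, 203 and 254 RPKM in WT (adjusted p = 0.945). Ctla4, a suppressive receptor, and Ikzf2, which encodes Helios, had log2 fold changes of 0.12 (adjusted p = 0.71) and 0.22 (adjusted p = 0.32). Il10, a suppressive cytokine, ranged from 12.9 to 25.5 RPKM in cluster Tg and from 6.86 to 25.4 RPKM in WT.

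Several other members of the Treg identity list fell. Of its 28 tested genes 10 were called lower, against 10.5% of all genes, and 3 higher, against 13.8%, with a median log2 fold change of -0.18. With only the 6 compared libraries in the fit 6 were called lower. Ecm1, a secreted matrix protein abundant in Treg cells, was at 55.3, 70.4 and 61.5 RPKM in cluster Tg and at 125, 128 and 168 RPKM in WT. That was a 2.23-fold lower level without overlap (limma's adjusted p = 3.7e-05). Gpr83, a receptor used as a Treg marker, was at 19.2, 31.8 and 55.1 RPKM against 69.1, 79.6 and 112 RPKM. Its log2 fold change was -1.38 ± 0.33 (SE), limma's adjusted p was 0.0087, and the adjusted p was 0.051 without cluster Tg library 1 and 0.062 with only the 6 libraries in the fit. Bach2, a repressor that holds T cells in a resting state, fell 2.15-fold and Satb1, a chromatin organiser, fell 1.85-fold. Il2rb, the shared chain of the IL-2 and IL-15 receptors, fell from a range of 533 to 648 RPKM in WT to 344 to 399 RPKM in cluster Tg. Nrp1 and Nt5e, also on this list, rose and are given below with the suppression genes.

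Most of the largest rises were in genes with low values in WT. Ly6c2, a surface antigen of the Ly6 family, was at 64.3, 20.6 and 19.9 RPKM in cluster Tg and at 1.22, 1.6 and 2.5 RPKM in WT, a 13.7-fold difference (limma's adjusted p = 0.00013). Its neighbour Ly6c1, a close copy on the same chromosome 15, named here after its values were seen, moved the other way, from 65.9, 91.7 and 87.7 RPKM in WT to 18.1, 26.9 and 62.3 RPKM in cluster Tg. The counting could split reads between such copies, so the values of this pair are uncertain. Muc13, a cell-surface mucin on chromosome 16, was at 9.16, 2.68 and 2.96 RPKM in cluster Tg and did not exceed 0.186 RPKM in WT (7.98-fold, adjusted p = 0.00027). Cdkn2a, the locus of the cell cycle inhibitors p16 and p19, was at 14.1, 4.79 and 2.71 RPKM against 0.198 to 0.58 RPKM. Its log2 fold change of 2.92 was 2.31 without cluster Tg library 1, where the adjusted p remained 0.0012.

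Further rises were in genes of several kinds. Lgals3, the gene of galectin-3, was at 33.6, 18.8 and 9.14 RPKM in cluster Tg and at 2.19, 3.15 and 2.2 RPKM in WT. Axl, a receptor tyrosine kinase, was at 121, 105 and 68.1 RPKM against 20.3, 20.6 and 11.6 RPKM. Gzmk, a granule protease, was at 20.7, 7.39 and 8.53 RPKM against 1.79, 1.87 and 1.42 RPKM. The groups did not overlap for these 3 genes, and their adjusted p-values from limma were 0.0012, 2.5e-05 and 0.0014. Slc15a3, a lysosomal peptide transporter, rose 6.03-fold, Scin, an actin-severing protein, 5.89-fold, Krt17, a keratin, 6.68-fold, and the noncoding gene Dleu2 7.81-fold. Sostdc1, a secreted BMP antagonist, was at 8.98, 5.46 and 1.03 RPKM against 0.093 to 0.453 RPKM, and its log2 fold change of 2.51 was 3.27 without cluster Tg library 3. Its adjusted p of 0.007 was 0.053 with only the 6 libraries in the fit.

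The largest falls were smaller in size. Sh3bgrl2, which encodes a small thioredoxin-fold protein, was at 0.471, 1.32 and 2.65 RPKM in cluster Tg and at 9.01, 8.84 and 8.52 RPKM in WT, 5.24-fold lower (limma's adjusted p = 0.00016). Gabrr2, a subunit of a GABA receptor, was at 0.659, 1.21 and 3.35 RPKM against 8.87, 8.52 and 10.5 RPKM. In both genes library 1 was the lowest and library 3 the highest of the cluster Tg libraries, and no library reached the WT range. Tgm2, a transglutaminase, was at 1.99, 1.59 and 2.1 RPKM against 12.5, 14.9 and 4.31 RPKM (adjusted p = 0.0014). Osgin1, an oxidative stress response gene, fell 3.34-fold with little spread, from 21.8, 22 and 17.5 RPKM to 4.85, 6.52 and 5.92 RPKM. Tnnt2, Arhgap20, Sorcs2, Khdc1a, Igsf23 and Cecr6 were also among the 12 largest falls, at 3.1-fold to 4.11-fold lower. Gt(ROSA)26Sor, the noncoding transcript of the Rosa26 locus, fell from 14.6, 13.3 and 18.8 RPKM to 3.11, 5.48 and 7.84 RPKM. Its mean was 3.47 to 5.54 RPKM in the 3 single-member lines and 15.8 RPKM in DKO.

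**Figure D2:**
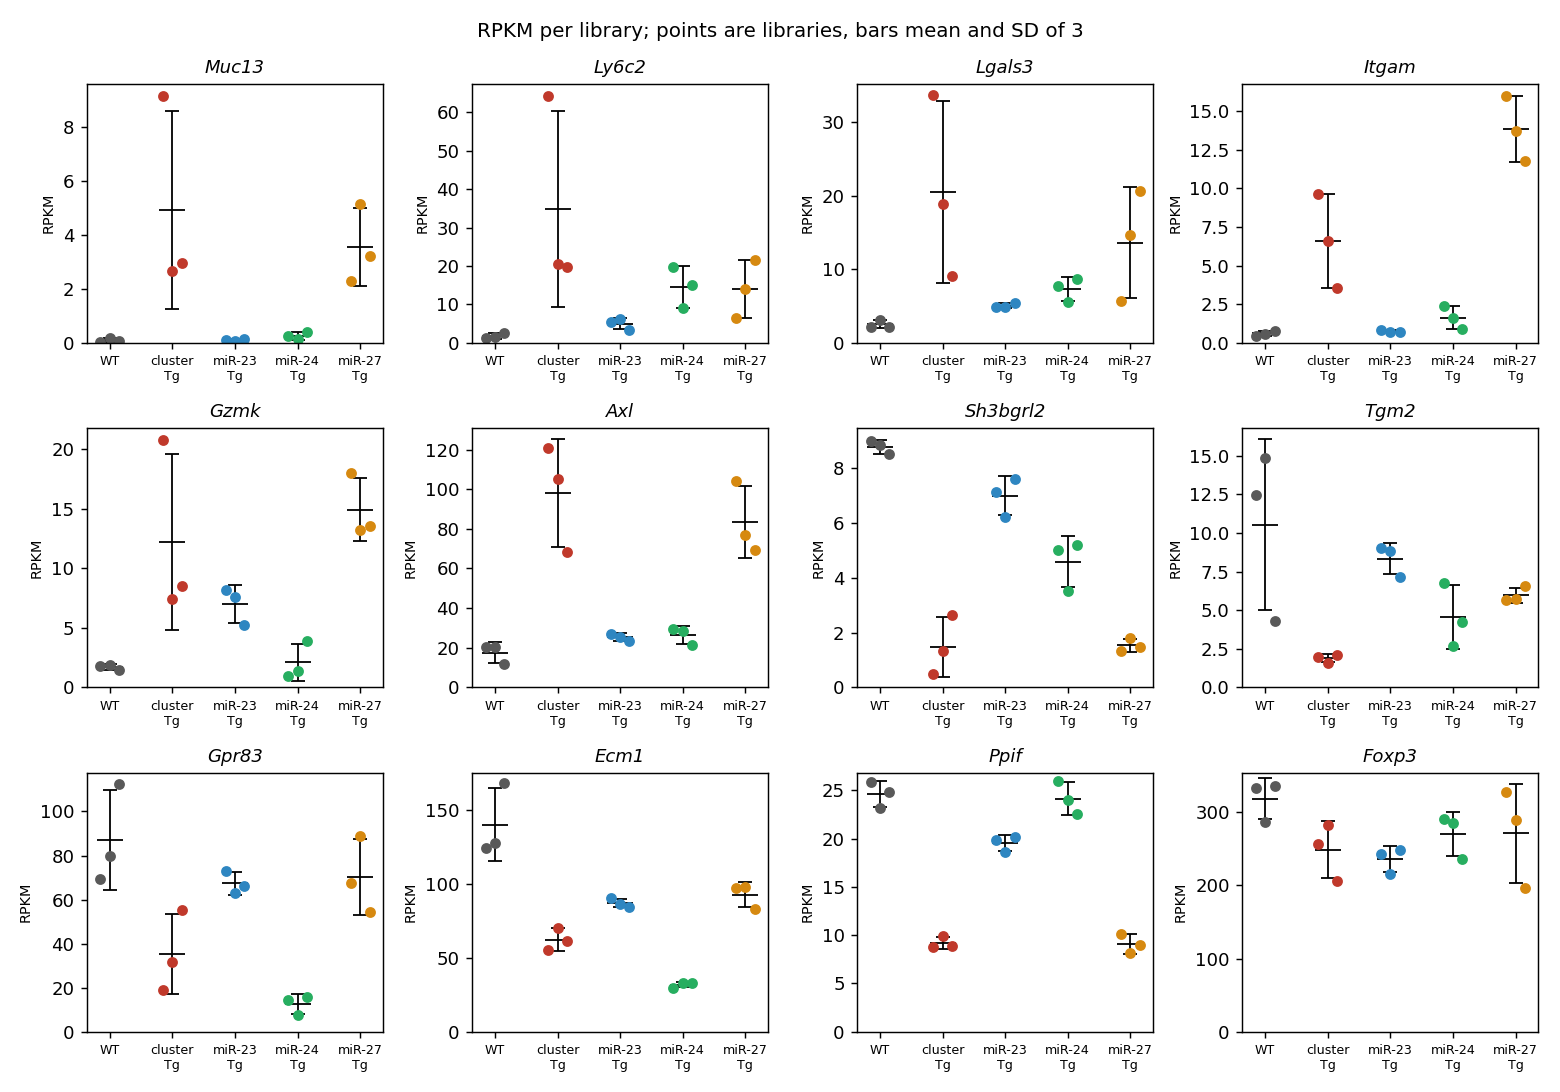
RPKM (y axis) of 12 genes in the 3 libraries of WT and the 4 overexpressing groups (x axis); points are libraries, the horizontal mark is the mean and the error bar the SD. The cluster Tg points of Muc13, Ly6c2, Lgals3 and Itgam lie above all WT points, those of Sh3bgrl2, Tgm2 and Ppif below them, and the Foxp3 points of both groups lie between 207 and 336 RPKM.

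Most genes of the effector Treg state rose. Of 36 tested members 23 were called higher and 0 lower, against 13.8% of all genes called higher, and all 36 had a positive log2 fold change (median 0.99). As all gene lists were written with earlier results of these data known, such counts are descriptions and not independent support. Itgb1, an integrin chain for tissue matrix, was at 275, 213 and 184 RPKM in cluster Tg and at 55.2, 57.4 and 74.3 RPKM in WT (3.56-fold, limma's adjusted p = 1.5e-05). Il1rl1, the receptor of IL-33, was at 33.7, 26.1 and 14.5 RPKM against 5.63, 4.92 and 3.77 RPKM. Icos, a co-stimulatory receptor, was at 189, 179 and 165 RPKM against 88.8, 84.9 and 93.2 RPKM, with the libraries of each group close together. Batf, a transcription factor of effector Treg cells, rose 2-fold, from a range of 85.4 to 107 RPKM to 160 to 211 RPKM. The summed level of the list was 4838, 3763 and 2835 RPKM in cluster Tg libraries 1 to 3 and 1446 to 1607 RPKM in WT. No library left out brought the count under 21.

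Genes of the resting state moved the other way. Of 22 tested members 12 were called lower, against 10.5% of all genes, and 3 higher, near the 13.8% of all genes. The median log2 fold change of the list was -0.44. Ccr7, the lymph node homing receptor, was at 71.8, 92 and 102 RPKM in cluster Tg and at 177, 167 and 177 RPKM in WT (1.98-fold lower, limma's adjusted p = 0.00016). Foxo1, a transcription factor that sustains Ccr7 and other resting genes, was at 57.5, 60.6 and 51.4 RPKM against 77.3, 74.2 and 71.4 RPKM. The 3 that rose were Ly6c2, Pecam1 and Dapl1, of which Dapl1 was at 39.9, 31 and 52.7 RPKM against 7.81, 7.03 and 13.8 RPKM. Without cluster Tg library 1, 8 members were called lower.

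Among suppression genes 7 of 17 were called higher, against 13.8% of all genes, and 2 lower, near the 10.5% of all genes. Their median log2 fold change of 0.64 was 0.33 without cluster Tg library 1 and 0.415 without WT library 3. Tigit, an inhibitory receptor, was at 240, 267 and 125 RPKM in cluster Tg and at 75.2, 69.4 and 65.5 RPKM in WT (limma's adjusted p = 0.00066). Ebi3, a subunit of IL-35 and IL-27, was at 49.3, 49.2 and 29.7 RPKM against 18.4, 17.3 and 16.5 RPKM. Library 3 was the lowest cluster Tg library for both and stayed above WT. Nrp1 and Nt5e, a semaphorin receptor and the CD73 ectoenzyme, rose 1.84-fold and 1.56-fold.

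Receptors and factors of other T helper programmes were also among the called genes, where 13.8% of all genes were called higher and 10.5% lower. Of 18 Th1 genes 9 were called higher and 0 lower (median log2 fold change 1.2), and 6 were called without cluster Tg library 1. Il18r1, a chain of the IL-18 receptor, was at 145, 115 and 99.6 RPKM in cluster Tg and at 32.8, 31 and 23.2 RPKM in WT (4.07-fold, limma's adjusted p = 3.8e-05). Cxcr3, a chemokine receptor of Th1 cells, was at 116, 81.1 and 45.1 RPKM against 23.4, 16.5 and 21.4 RPKM. Of 14 follicular T cell genes 9 were called higher and 0 lower, led by Angptl2 at 55, 39.2 and 32.8 RPKM against 11.6, 12 and 13 RPKM. Of 17 Th17 genes 7 were called higher and 2 lower, with the membrane proteins Tmem176b and Tmem176a at 4.63-fold and 4.47-fold. The 2 lower Th17 genes are near the share of all genes. Without cluster Tg library 1 the Th17 counts were 4 and 0, and with only the 6 libraries in the fit 5 and 0. Of 11 Th2 genes 5 were called higher and 2 lower, and the shared genes Maf and Il1rl1 were among those higher. Gata3, the Th2 master regulator, was at 79.9, 80.9 and 35.3 RPKM against 47.6, 50.1 and 38.3 RPKM and was not called (adjusted p = 0.29). Without cluster Tg library 3 its adjusted p was 0.018.

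Many interferon response genes rose. Of 46 tested members 27 were called higher, against 13.8% of all genes, and 0 lower, with a median log2 fold change of 0.52, and between 23 and 29 were called with any 1 library left out. Ifit3, which binds viral RNA in complexes with its relatives, was at 26.3, 22.5 and 18.3 RPKM in cluster Tg and at 7.54, 6.35 and 6.91 RPKM in WT (3.06-fold, limma's adjusted p = 0.00014). Ifih1, the RNA sensor MDA5, was at 27.7, 21.7 and 16.8 RPKM against 8.75, 8.33 and 8.66 RPKM. Ifi27l2a was the most abundant of the 4 named, at 2294, 2078 and 1547 RPKM against 719, 671 and 676 RPKM. All of these separated the groups, with library 1 highest and library 3 lowest in cluster Tg. Mx1, an antiviral GTPase, rose 3.04-fold.

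Cell cycle genes had a positive log2 fold change in 45 of 46 cases, with a median log2 fold change of 1.05, and 22 were called higher, against 13.8% of all genes, and 0 lower. Mki67, the proliferation antigen, was at 31, 28.1 and 31.1 RPKM in cluster Tg and at 5.69, 11.8 and 10.4 RPKM in WT (3.24-fold, limma's adjusted p = 0.0025). Ccna2, cyclin A2, was at 20.6, 15.4 and 22 RPKM against 2.69, 6.3 and 5.74 RPKM. The cluster Tg libraries were close together and WT library 1 was the lowest of all for both genes. The count of 22 was 14 with no filter on low values and 37 with the immediate-early covariate. It was 4 without WT library 1, 11 without WT library 2, 21 without WT library 3, and 7, 13 and 9 without cluster Tg library 1, 2 or 3, while the median stayed between 0.84 and 1.22. Of 15 genes of CDK inhibition and quiescence 4 (Cdkn2c, Cdkn2a, Cdkn1a and Rbl1) were called higher, against 13.8% of all genes, 1 (Klf2) was called lower and 10 were not called. The higher count was 2 without cluster Tg library 1, without WT library 3 or with only the 6 libraries in the fit. Cdkn2c was at 33.9, 24.2 and 22.9 RPKM against 5.73, 6.17 and 7.21 RPKM (adjusted p = 3.8e-05). Cdkn1a, the p21 inhibitor, was at 49.9, 25.9 and 7.47 RPKM against 7.22, 7.03 and 0.995 RPKM. Its adjusted p of 0.025 was 0.13 without cluster Tg library 1, 0.069 without cluster Tg library 2 and 0.11 without WT library 3, and 0.13 with only the 6 libraries in the fit.

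Ribosomal protein genes had a negative log2 fold change in 38 of 42 cases, with 21 called lower, against 10.5% of all genes, 0 higher and a median log2 fold change of -0.45. Their summed level was 19880 to 26180 RPKM in cluster Tg and 29330 to 32450 RPKM in WT. Rps20 was at 666, 686 and 907 RPKM against 1260.1, 1440.4 and 1081 RPKM in WT (1.68-fold lower, limma's adjusted p = 0.0019). The count of 21 was 9, 10, 11 and 10 without cluster Tg library 1 or 2 or WT library 1 or 2, and 9 with no filter on low values. With only the 6 libraries in the fit it was 3. Such genes have many processed copies in the genome, so their values depend on how reads with several matches were counted, which is not given in the sources used here.

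Of 30 migration receptors 10 were called higher, against 13.8% of all genes, and 3 lower, near the 10.5% of all genes. Itgam, the integrin CD11b, was at 9.64, 6.61 and 3.53 RPKM in cluster Tg and at 0.437, 0.59 and 0.777 RPKM in WT (6.06-fold, limma's adjusted p = 8.2e-05). Itgam is also a myeloid marker, and of 15 myeloid markers tested 2, Itgam and Cst3, were called higher, near the share of all genes, while all 15 had positive log2 fold changes with a median of 0.775. The count was 7 with only the 6 libraries in the fit and 4 with the immediate-early covariate, and Lyz2 and Fcgr3 were among the called genes in both. The call of Cst3 was lost with any 1 library left out except cluster Tg library 2, at adjusted p-values of 0.0506 to 0.0976. The sum of the myeloid list was 145 to 181 RPKM in cluster Tg and 102 to 113 RPKM in WT, and Cst3 made up most of it. Lyz2, lysozyme, was at 8.2, 7.72 and 7.97 RPKM in cluster Tg against 2.12, 3.01 and 1.96 RPKM in WT. The complement gene C1qa was at 0.828 to 1.25 RPKM against 0.266 to 0.417 RPKM, and Csf1r, the receptor of a macrophage growth factor, at 0.233 to 0.423 RPKM against 0.0898 to 0.149 RPKM. None of these 3 ranges overlapped WT. The B cell list summed to 62.4, 64.8 and 98.7 RPKM in cluster Tg libraries 1, 2 and 3 and to 58.1 to 66.1 RPKM in WT. Of its 14 tested genes 12 had a positive log2 fold change (median 0.569). None of the 14 was called, and Cd79b and Cd22 were called higher with only the 6 libraries in the fit (limma's adjusted p = 0.0476 and 0.0301). Without cluster Tg library 3 the median was 0.215 and 1 B cell gene was called lower. The CD8 T cell list summed to 104 to 164 RPKM against 122 to 176 RPKM, and of its 7 tested genes 2 were called higher and 1 lower. The NK list summed to 28.3, 11.6 and 7.25 RPKM against 7.3 to 9.61 RPKM. Of its 7 tested genes 1, Klrd1, was called higher and 1, Prf1, lower (log2 fold change -0.66), against 13.8% and 10.5% of all genes. The call of Prf1 was lost with any 1 library left out except cluster Tg library 1. Klrd1, an NK and CD8 T cell receptor, was at 8.96, 2.21 and 0.659 RPKM against 0.111 to 0.265 RPKM, and its adjusted p of 0.023 was 0.12 without cluster Tg library 1, where its log2 fold change of 2.22 was 1.41. It was 0.0504, 0.0612 and 0.0611 without WT library 1, 2 or 3, and 0.086 with only the 6 libraries in the fit. The neutrophil genes S100a8 and S100a9 were listed at 0 in cluster Tg library 2 and in WT library 2. The part of other cells in these results was not tested.

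Of 30 apoptosis genes 6 were called higher, 7 lower and 17 neither, against 13.8% and 10.5% of all genes. The counts were 3 and 5 without cluster Tg library 1, cluster Tg library 2 or WT library 3, and with only the 6 libraries in the fit. Ppif, the mitochondrial permeability pore regulator cyclophilin D, had the smallest p of the list, at 8.77, 9.94 and 8.92 RPKM in cluster Tg and 25.8, 23.1 and 24.8 RPKM in WT. That was 2.59-fold lower with narrow spread in both groups (9.21 ± 0.637 against 24.6 ± 1.35 RPKM, SD, n = 3), and limma's adjusted p was 1.5e-06. Fas, the death receptor, was at 36.9, 36.4 and 42.9 RPKM against 53.6, 54.2 and 54.8 RPKM. Bcl2 had a log2 fold change of -0.64, and its adjusted p of 0.014 was 0.083 without cluster Tg library 1, 0.051 without library 2, 0.064 without WT library 3 and 0.097 with only the 6 libraries in the fit.

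Other pathways showed smaller counts, many of them near the 13.8% and 10.5% of all genes. Of 22 NF-kB genes 1 was called higher and 2 lower, and Rel, a subunit named as a miR-27 target in the literature, was at 31.6, 41.7 and 24.8 RPKM against 30.1, 34.9 and 26.5 RPKM (adjusted p = 0.89). Of 15 genes of IL-2 receptor and STAT5 signalling 0 were called higher and 4 lower. Of 17 TGF-beta genes 1 was called higher and 3 lower, and Ski, a repressor of the pathway, was at 49.5, 53.5 and 52.2 RPKM against 74.1, 69.5 and 72 RPKM. Of 22 immediate-early and receptor-induced genes 2 were called higher and 1 lower, the latter Myc, which fell 1.59-fold. Glycolysis had 4 of 22 called higher and 3 lower, cholesterol synthesis 0 of 21 higher and 2 lower, and oxidative phosphorylation 3 of 34 higher and 0 lower. With 1 library left out, 1 to 4 TGF-beta genes, 2 to 4 IL-2 receptor genes and 0 to 2 cholesterol genes were called lower, and 0 to 3 NF-kB genes and 1 to 3 oxidative phosphorylation genes higher.

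**Figure D3:**
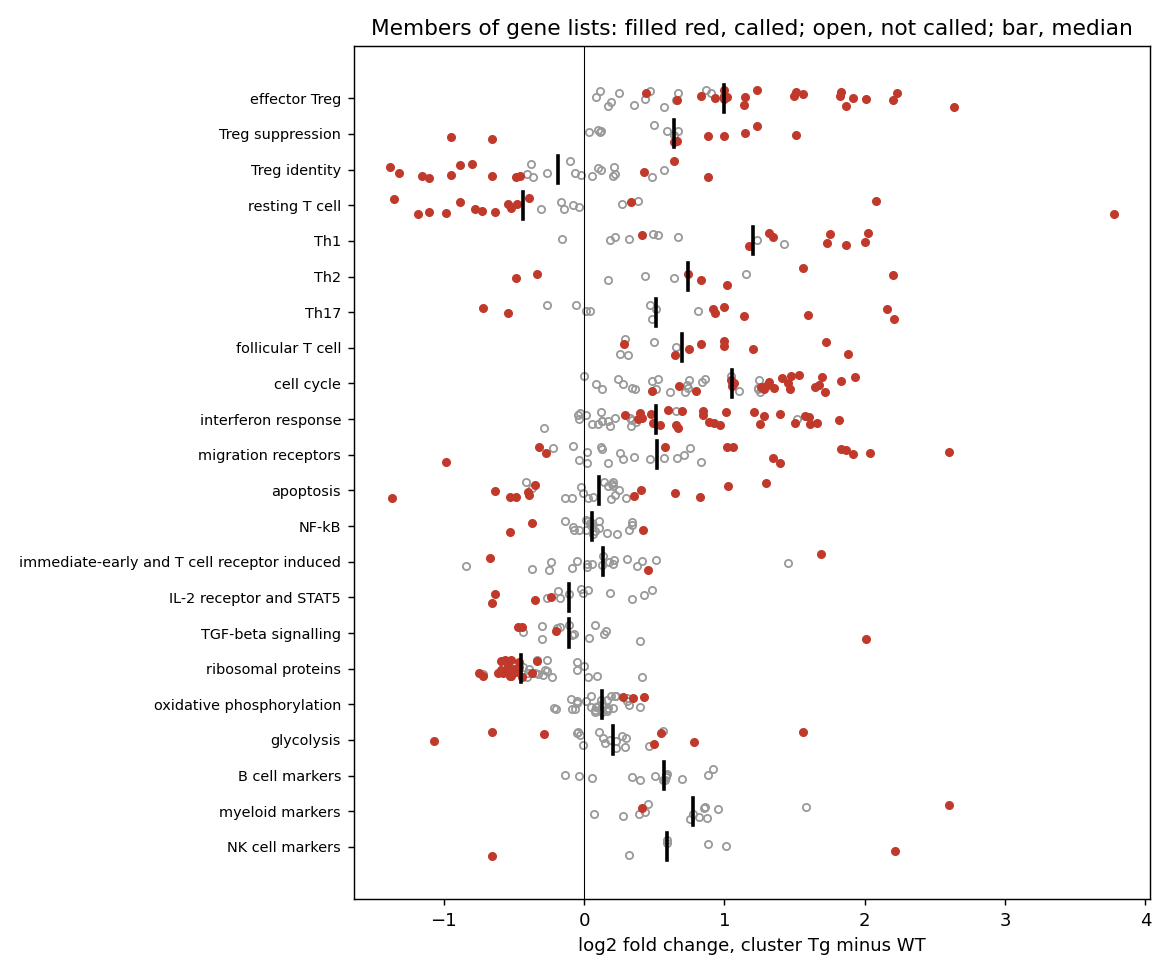
Log2 fold change, cluster Tg minus WT (x axis), of each tested member of 22 gene lists (rows); filled red points are called genes, open points are not, and the bar is the median of the list. Effector Treg, cell cycle and interferon genes lie mainly to the right of 0, with medians of 0.99, 1.05 and 0.52, and ribosomal protein genes to the left, with a median of -0.45.

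Fewest genes were called between cluster Tg and miR-27 Tg among the direct comparisons. Against miR-23 Tg 1257 genes were called higher in cluster Tg (10.9%) and 909 lower (7.89%). Against miR-24 Tg 743 were called higher (6.45%) and 587 lower (5.1%), and against miR-27 Tg 403 higher (3.5%) and 386 lower (3.35%). These counts need the spread pooled over 18 libraries: with only the compared groups in the fit they were 716 and 461, 6 and 5, and 3 and 2. Without cluster Tg library 1 they were 677 and 400, 262 and 198, and 156 and 155. Without cluster Tg library 2 they were 434 and 368 against miR-24 Tg and 264 and 245 against miR-27 Tg, and without cluster Tg library 3 the higher count against miR-24 Tg was 1129. Against miR-23 Tg they were 758 and 457 without its library 1, and 553 were lower without its library 2. Against miR-24 Tg they were 401 and 271 without its library 1 and 452 and 354 without its library 2. Against miR-27 Tg they were 131 and 137 without its library 2, 156 and 146 without its library 3, and 668 were lower without its library 1. Of the 2166, 1330 and 789 genes called against miR-23 Tg, miR-24 Tg and miR-27 Tg, 1059, 10 and 3 were still called with only the compared groups in the fit, so the adjusted p-values of single genes between lines given below rest on the pooled spread. The order of the 3 comparisons was not tested.

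Counts of called list members are given beside each direct comparison's share over all genes, 10.9%, 6.45% and 3.5% higher and 7.89%, 5.1% and 3.35% lower against miR-23 Tg, miR-24 Tg and miR-27 Tg. Differences between these counts were not tested, and they rest on the pooled spread. Of the 46 interferon genes 36 were called higher in cluster Tg than in miR-23 Tg, 17 than in miR-24 Tg and 1 than in miR-27 Tg, with 0 called lower in any. Of the 36 effector Treg genes 22, 7 and 2 were called higher, and 0, 1 and 3 lower, in the same order. Of the 46 cell cycle genes 0 were called higher against any single-member line, and 2 were called lower than in miR-27 Tg. Against WT, which all of these groups share as control, the median log2 fold change of effector genes was 0.99 in cluster Tg, 0.94 in miR-27 Tg, 0.81 in miR-24 Tg and 0.22 in miR-23 Tg. For cell cycle genes the medians were 1.05, 1.85, 0.47 and 1.08.

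Muc13 averaged 4.93 RPKM in cluster Tg, 3.55 in miR-27 Tg, 0.261 in miR-24 Tg and 0.0994 in miR-23 Tg, and cluster Tg differed from miR-23 Tg and miR-24 Tg (limma's adjusted p = 4e-04 and 0.0016) but not detectably from miR-27 Tg (0.72). Cd80, a co-stimulatory ligand, was at 30.9, 16.2 and 10.3 RPKM in cluster Tg. Its means were 21.6, 3.24 and 1.88 RPKM in miR-27 Tg, miR-24 Tg and miR-23 Tg. The miR-27 Tg mean lay within the cluster Tg range. Gabrr2, which averaged 9.09 RPKM in miR-23 Tg, stood at means of 1.76 and 2.29 RPKM in miR-24 Tg and miR-27 Tg. Igsf23 averaged 24.7 RPKM in miR-23 Tg, 3.28 RPKM in miR-24 Tg and 5.48 RPKM in miR-27 Tg. Ecm1 was lower in miR-24 Tg (32 RPKM) than in cluster Tg (62.4 RPKM, adjusted p = 0.00056).

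Of the 789 genes called between cluster Tg and miR-27 Tg, Dapl1, Cd86 and Ms4a4c are described as 3 with large differences that were also called against WT. Dapl1 was at 39.9, 31 and 52.7 RPKM in cluster Tg and averaged 10.2 RPKM in miR-27 Tg (limma's adjusted p = 0.0015), with 43.8 RPKM in miR-24 Tg and 28.6 RPKM in miR-23 Tg. Cd86, a co-stimulatory ligand, was at 29.6, 21 and 26.9 RPKM in cluster Tg and averaged 9.38 RPKM in miR-27 Tg and 23.8 RPKM in miR-24 Tg. Ms4a4c, a membrane protein, was at 79.4, 47.8 and 54.9 RPKM against a mean of 23.8 RPKM in miR-27 Tg. The WT libraries ranged from 7.03 to 13.8 RPKM for Dapl1, from 9.05 to 11.6 RPKM for Cd86 and from 18.7 to 20.7 RPKM for Ms4a4c. Myo6, an unconventional myosin, and Rab32, a vesicle GTPase, were lower in cluster Tg than in miR-27 Tg, the former at 0.758, 0.742 and 1.21 RPKM against 4.77 RPKM. Itgam and Fas were changed further in miR-27 Tg than in cluster Tg, at 13.8 and 22.5 RPKM (adjusted p = 0.041 and 0.00011).

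Seed matches were counted in the longest annotated 3′ UTR of each gene, as AATGTGA for miR-23, CTGAGCC for miR-24 and ACTGTGA for miR-27 on the transcribed strand. A 3′ UTR was found for 10585 of the tested genes. Matches in the genes below are shown because these genes are among the 5 with most matches for a seed of those called lower, or, for Ppif, because it matches both miR-23 and miR-27; the seed match is in capitals and coordinates are GRCm38.
Ppif miR-27 match, chr14:25700163-25700185, plus strand: tcctggtcACTGTGAatcctgct
Ppif miR-23 match, chr14:25700261-25700283, plus strand: ttctgctcAATGTGAattcccgt
Ppif miR-23 match, chr14:25700429-25700451, plus strand: tcatctcaAATGTGAtaaataaa
Etnk1 miR-23 match, chr6:143204498-143204520, plus strand: aataaggaAATGTGAattagaca
Etnk1 miR-23 match, chr6:143205367-143205389, plus strand: ccagcggaAATGTGAcaggctcc
Nup210 miR-24 match, chr6:91013742-91013764, minus strand: tgtgctgaCTGAGCCttcttact
Nup210 miR-24 match, chr6:91013438-91013460, minus strand: cagtggatCTGAGCCaccctatt
Dcaf7 miR-27 match, chr11:106055951-106055973, plus strand: atctttagACTGTGAcagacagg
A match is a description of letters and not evidence of binding.

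Of the genes called lower in cluster Tg, the 5 with most miR-24 matches were Zfp871, Nup210, Slc25a44, Frmd8 and Cux1, so their direction in cluster Tg is set by the choice. For genes chosen this way, comparisons of cluster Tg with the single-member lines use the same cluster Tg libraries. The choice therefore favours lower values of cluster Tg there too, and those p-values are not independent support. All but Zfp871 were also called lower in miR-24 Tg than in the same WT libraries. Nup210, a nuclear pore membrane protein with 4 miR-24 matches and 1 miR-27 match, was at 37.6, 50.3 and 47.3 RPKM in cluster Tg and at 83.5, 80.6 and 79.1 RPKM in WT (1.8-fold lower, limma's adjusted p = 6e-04). It averaged 44.8 RPKM in miR-24 Tg, 91 RPKM in miR-23 Tg and 86.2 RPKM in miR-27 Tg. Cluster Tg was lower than miR-23 Tg and miR-27 Tg (adjusted p = 0.00029 and 0.0015) and not detectably different from miR-24 Tg (1). Slc25a44, a mitochondrial carrier with 4 miR-24 matches, was at 7.41, 8.18 and 7.51 RPKM against 10.5, 11.3 and 11 RPKM in WT and 6.88 RPKM in miR-24 Tg. Frmd8, a FERM domain protein also with 4, was at 80.6, 95.3 and 92 RPKM against 118, 120 and 117 RPKM in WT, and was lower still in miR-24 Tg (71 RPKM, adjusted p = 0.015). Cux1, a homeodomain factor, showed 17.3 RPKM as its mean in cluster Tg and 18.2 RPKM in miR-24 Tg, with 22.1 RPKM in miR-23 Tg and 22.7 RPKM in miR-27 Tg. Zfp871, a zinc finger protein with 5 miR-24 matches, was at 16.2, 20.4 and 25.2 RPKM against 26.4, 28.6 and 33.6 RPKM in WT and averaged 33.1 RPKM in miR-24 Tg. Its adjusted p of 0.033 was 0.17 without cluster Tg library 1, 0.07 without library 2, 0.064 without WT library 2, 0.12 without WT library 3 and 0.091 with only the 6 libraries in the fit.

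Chosen the same way, the 5 with most miR-23 matches were Zfp808, Etnk1, Celf1, Tet3 and Zfp942. None was called between miR-23 Tg and WT. All but Zfp942 were called lower in cluster Tg than in miR-24 Tg and miR-27 Tg, a direction that the choice of genes favours. Zfp808, a zinc finger protein with 7 matches, was at 0.512, 0.81 and 0.887 RPKM in cluster Tg and at 1.29, 0.982 and 1.51 RPKM in WT. Its adjusted p of 0.043 was 0.055 with no filter, 0.113 with only the 6 libraries in the fit, and 0.0626 to 0.194 without cluster Tg library 1 or 2 or WT library 1 or 3. Zfp942, with 4 matches, was at 10.7, 10.5 and 12.8 RPKM against 14.6, 15.1 and 15.4 RPKM. Its adjusted p of 0.02 was 0.0842, 0.0691 and 0.0594 without cluster Tg library 1, cluster Tg library 2 or WT library 3. Etnk1, ethanolamine kinase, has 6 miR-23 matches and was at 29.2, 33.8 and 40.1 RPKM in cluster Tg and at 57.4, 53.4 and 65.6 RPKM in WT (1.71-fold lower, limma's adjusted p = 0.00053). Its mean was 39.3 RPKM in miR-23 Tg (adjusted p = 0.26 against cluster Tg), 59.8 RPKM in miR-24 Tg and 51.6 RPKM in miR-27 Tg. Celf1, an RNA-binding protein with 4 matches, was at 21.3, 25.9 and 28.5 RPKM against 36.3, 37.9 and 48.9 RPKM, and was lower than in miR-23 Tg as well (33.1 RPKM, adjusted p = 0.034). Tet3, a DNA demethylation enzyme with 4 matches, fell 1.54-fold, with an adjusted p of 0.055 when only the 6 libraries were in the fit. Ppif matched both seeds, and its mean was 19.6 RPKM in miR-23 Tg, 24.1 RPKM in miR-24 Tg, 9.07 RPKM in miR-27 Tg and 31.7 RPKM in DKO. Cluster Tg and miR-27 Tg did not differ detectably for Ppif (adjusted p = 0.91), while cluster Tg was lower than miR-23 Tg (2.2e-05).

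The 5 genes chosen in this way for miR-27 were Dnajc5, Dcaf7, Ankrd10, Dcp2 and Luc7l, of which Ankrd10 and Luc7l were also called lower in miR-27 Tg than in WT. The calls of Dcp2 and Luc7l against WT were lost without cluster Tg library 1 (adjusted p = 0.0808 and 0.0844), without WT library 3 (0.0624 and 0.0556) and with only the 6 libraries in the fit (0.0562 and 0.0757). Dcaf7, a WD-repeat scaffold with 3 matches, was at 28.7, 31 and 30.1 RPKM in cluster Tg and at 39.6, 42.4 and 48.9 RPKM in WT (limma's adjusted p = 0.00041), while its mean in miR-27 Tg was 40.3 RPKM. Ankrd10, an ankyrin repeat protein with 3 matches, was at 44.5, 51.2 and 57.7 RPKM against 75.4, 65.3 and 68.3 RPKM and averaged 53.2 RPKM in miR-27 Tg. Dnajc5, a synaptic vesicle chaperone with 4 matches, fell 1.17-fold, and its adjusted p of 0.0115 was 0.063 without cluster Tg library 1 and 0.063 with only the 6 libraries in the fit. Zbtb10, a repressor, has no miR-27 match in the UTR used; it was at 1.28, 2.37 and 1.42 RPKM against 4.72, 3.72 and 2.5 RPKM and averaged 0.516 RPKM in miR-27 Tg. Its adjusted p of 0.033 rose over 0.05 without cluster Tg library 1 or 3 or WT library 1 or 2, to 0.137 at most, and was 0.069 with only the 6 libraries in the fit and 0.055 with no filter.

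**Figure D4:**
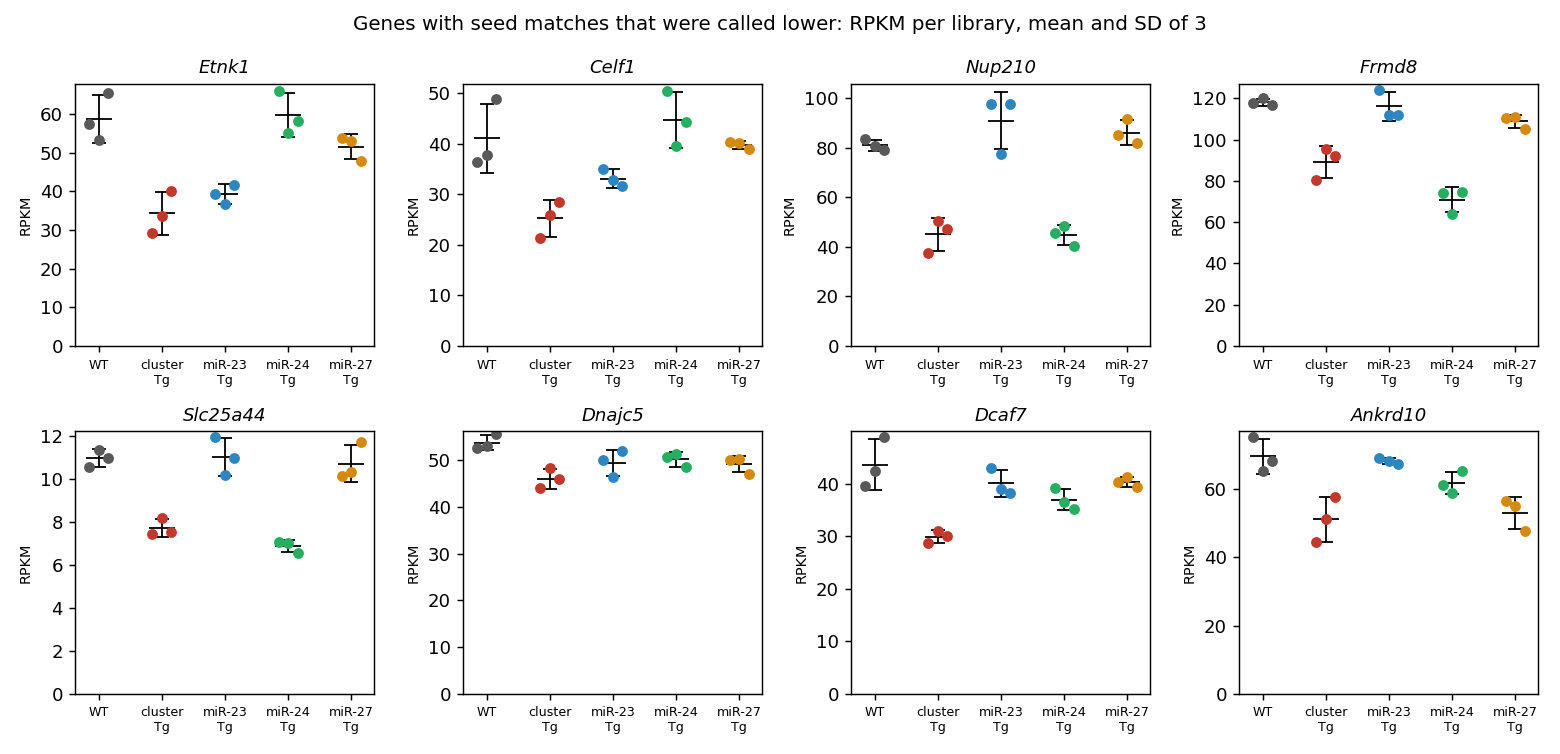
RPKM (y axis) in the 3 libraries of WT and the 4 overexpressing groups (x axis) for 8 genes with seed matches; points are libraries, with the mean and SD. Nup210, Frmd8 and Slc25a44 are low in cluster Tg and miR-24 Tg and near WT in the other lines. Etnk1 is low in cluster Tg and miR-23 Tg, though it was not called between miR-23 Tg and WT. Dcaf7, a gene with miR-27 matches, is low in cluster Tg, while its miR-27 Tg mean lies within the WT range.

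Over all site genes the shifts were small. Genes with no match for any of the 3 seeds (6285 genes) showed a log2 fold change of 0.05 at the median, with 15.8% called higher and 8.43% called lower. Genes with a miR-23 match (1731 genes) had a median of -0.02 and 13.2% called lower. Genes with a miR-24 match (2018 genes) had a median of -0.03 and 15.2% called lower, and those with a miR-27 match (1818 genes) a median of -0.03 and 14.8% called lower. The median difference of miR-24 match genes from the WT mean was -0.0325, 0.00524 and -0.0688 in cluster Tg libraries 1, 2 and 3. For miR-23 and miR-27 matches it was negative in each cluster Tg library, and for genes with no match positive in each. For a match followed by A, 8 bases in all, 14.9%, 15% and 18.5% of the miR-23, miR-24 and miR-27 genes were called lower. Within the middle of 3 classes of 3′ UTR length, 685 to 1808 bases, the shares called lower were 16%, 18.2% and 16.4% for the 3 seeds and 8.51% for genes with no match. They were 12%, 13.5% and 14.4% against 8.66% in the long class, which holds most genes with a match, and 12.8%, 16% and 13.3% against 8.29% in the short class. In the single-member lines the same sets had medians of -0.05 (miR-23 matches in miR-23 Tg), -0.03 (miR-24 in miR-24 Tg) and -0.06 (miR-27 in miR-27 Tg). Genes with no match had medians of 0.0283, 0.00729 and 0.0237 in miR-23 Tg, miR-24 Tg and miR-27 Tg. In lines of another member the match sets had medians from -0.0161 (miR-27 matches in miR-23 Tg) to 0.0524 (miR-23 matches in miR-24 Tg). These are counts and medians with no test.

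**Figure D5:**
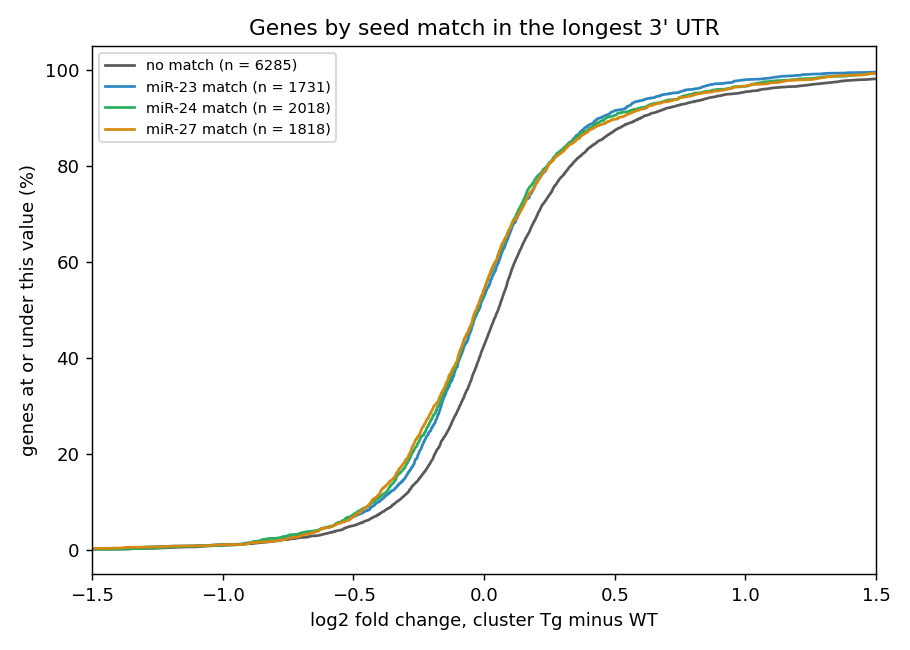
Share of genes at or under each log2 fold change, cluster Tg minus WT, for genes with no match and for genes with a miR-23, miR-24 or miR-27 match in the longest 3′ UTR. The 3 match curves lie slightly to the left of the no-match curve, with medians of -0.02, -0.03 and -0.03 against 0.05.

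Lists of literature targets held called genes in both directions. They were compiled from general knowledge and not checked against a source. Of 17 miR-23 targets 3 were called lower (Ppif, Satb1 and Fas) and 1 higher, with a median log2 fold change of 0.01. Of 17 miR-24 targets 3 were called lower and 5 higher, and of 21 miR-27 targets 4 lower and 2 higher, against 10.5% of all genes called lower and 13.8% higher. The miR-27 targets called lower were 1 to 3 with 1 library left out, and 1 without cluster Tg library 1 or WT library 2. Acvr1b, an activin receptor with 2 miR-24 matches, was at 5.51, 7.17 and 7.96 RPKM against 13.4, 12.7 and 11.9 RPKM in WT. Among 16 genes of microRNA processing 2 were called higher and 1 lower, and Dgcr8, the partner of Drosha, was at 23.3, 21 and 22.2 RPKM against 15, 15.1 and 16 RPKM.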

How the data were processed

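The authors deposited 1 table of RPKM values covering 18 libraries, 1 column each. STAR 2.2.0c, HOMER and the mm10 (GRCm38) genome are named per the submitters' processing notes; which step made the RPKM, the annotation and the treatment of reads with several matches are not given in the sources used here. Total RNA with small RNAs kept was made into TruSeq libraries, per the labels' protocols. Of 23953 entries 4 with a repeated symbol were left out and 27 had symbols turned into dates. Genes that reached 1 RPKM in 3 libraries or more entered the test, limma 3.58.1 in R 4.3.3 (mean-variance trend, log2(RPKM + 0.5), 1 model over 18 libraries, two-sided, Benjamini-Hochberg over 11520 genes), since RPKM are not counts. Steps between low values gave the depth, 20.18 to 31.7 megareads per library, but only 36.4% to 45.7% of the low values used lay within 0.1 of a whole read, so read counts were not recovered. Single loci were compared by exact permutation. Symbols were matched to GENCODE vM21 directly for 22635 entries and by synonym for 921. Tables and figures used Python 3.11.15, pandas 2.3.3 and matplotlib 3.10.9. Named genes were, from the called genes with separate WT and cluster Tg ranges, the 12 that rose and the 12 that fell most (symbols of predicted genes, clones, small RNAs and antigen receptor segments set aside), a panel, the 4 smallest p-values of each list, 5 per direction and direct comparison, and 5 per seed with the most matches among genes called lower; others are given as values. Some genes this rule names are not reported here by name, though they remain in the counts and medians of their lists. The members and lists were chosen with earlier results of these data known. The method was tested on simulated data. Alternatives were pseudocounts of 0.1 and 1, no filter, a filter of 5 RPKM, scaling by median ratios, a fit restricted to the groups compared, a block for replicate number and leaving out each library; a sex covariate, an immediate-early covariate, a table stripped of small RNA entries and an 8-base match were added after seeing the data.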

Additional observations from a re-analysis of the deposited data

How the results depend on the processing

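Of the 2806 genes called between cluster Tg and WT, all kept their direction in every setting in which all of them were tested, and 1463 were still called without cluster Tg library 1 and 1637 with only the 6 libraries in the fit. Counts of genes called against WT ranged from 865 to 1644 higher and from 602 to 1248 lower with 1 library left out, and from 264 to 488 and 74 to 193 by at least 2-fold. With only the 6 libraries 656 were lower. With a pseudocount of 0.1, 196 fell by at least 2-fold, and with a filter of 5 RPKM 246 rose and 73 fell by that much. Left-out libraries gave 677 to 1297 higher and 400 to 893 lower against miR-23 Tg, 262 to 1129 and 198 to 812 against miR-24 Tg, and 131 to 551 and 137 to 668 against miR-27 Tg. With only the compared groups in the fit, 716 and 461, 6 and 5, and 3 and 2 genes were called, and with the filter of 5 RPKM 371 were lower than in miR-24 Tg; the cause was not tested. The median log2 fold change of genes with a miR-23 match was -0.0422 (without WT library 1) to -0.0081 (without WT library 2). That of miR-24 was -0.0496 (without cluster Tg library 2) to -0.0144 (without cluster Tg library 3). That of miR-27 was -0.041 (without WT library 3) to -0.0183 (without WT library 2). With the 8-base match the medians were -0.0505 for miR-23, -0.0209 for miR-24 and -0.0617 for miR-27. With every seed match counted they were -0.0204, -0.0256 and -0.0311. The 8-base match thus gave a lower median for miR-23 and miR-27 but not for miR-24. With the replicate number as a block 1794 genes were higher and 1328 lower, and 35 cell cycle genes were called in place of 22. Over 45 pairs of same-numbered libraries the median correlation of deviations was 0.004, from -0.167 to 0.188; 6 were over 0.1, 5 of them between libraries numbered 3, and the pair of cluster Tg and WT was at -0.00278 there. As not every pair was over 0.1, the numbers were not taken to pair the libraries. Depth per gene is known only as an estimate, so no count test was run.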

Other observations

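Small RNA entries, which the naming rule left out, are given here as values chosen after they were seen. Mir29a was listed at 0 in the 3 WT libraries and stood at 285, 76.2 and 204 RPKM in cluster Tg. Mir7045 was listed at 0 in WT and stood at 193, 258 and 230.4 RPKM in cluster Tg. Mir7063 was at 46.8, 88 and 69.1 RPKM in WT and listed at 0 in the 3 cluster Tg libraries. Snora65 was at 571, 573 and 510 RPKM in WT and at 285, 339 and 379 RPKM in cluster Tg.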
